A study of Mus musculus with 4 samples.

Results

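The 10 alpha- and beta-tubulin genes described here were Tuba1a, Tuba1b, Tuba1c, Tuba4a, Tuba8, Tubb2a, Tubb2b, Tubb4b, Tubb5 and Tubb6, chosen by gene name among 54532 genes of the count table. Each name matched 1 row. They were followed because Tubb2a was among the firmest differences between the livers labelled as knockouts of Cpt1a and of Cpt2, so the comparison between those livers chose the set and is given as a description. The samples were 4 liver libraries of mice with a liver-specific knockout of Cpt1a, taken after a 24 h fast. Cpt1a encodes the outer membrane carnitine palmitoyltransferase that admits long-chain fatty acids to mitochondria. The other groups are known only from the authors' tables of comparisons: a group named Cpt2 with AlbCre, a Cre driver active in hepatocytes, and a reference group whose short name joins Rab30, Cpt2 and the letter f. The design text describes 24 h fasted littermate controls and mice without Cpt2, but what the short name of the reference group stands for is not stated. Age, sex and strain are not given either.

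Microtubules are hollow polymers of a heterodimer of 1 alpha- and 1 beta-tubulin. Mammals encode several isotypes of each, which share a conserved body and differ most in an acidic C-terminal tail, where enzymes add or remove tyrosine and glutamate. In hepatocytes, microtubules carry secretory vesicles, including those with very-low-density lipoprotein, and colchicine, which blocks tubulin assembly, lowers that secretion. Cells also set their tubulin mRNA levels by autoregulation: when free heterodimer is plentiful, the factor TTC5 reads the first residues of a tubulin as it leaves the ribosome and the mRNA is degraded.

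The coding ends show what the isotypes share and where they part. The lines below give the first 24 coding bases of 9 genes from GENCODE M21 (GRCm38), with the 4 codons of the autoregulation signal in capitals. They are shown because the fourth codon tells the families apart: it is TGC in the 5 alpha genes and ATC in the 4 beta genes printed.
Tuba1a: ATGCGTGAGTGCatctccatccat
Tuba1b: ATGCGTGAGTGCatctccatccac
Tuba1c: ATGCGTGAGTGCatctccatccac
Tuba4a: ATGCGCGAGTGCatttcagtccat
Tuba8: ATGAGGGAATGCatatcggtccat
Tubb2a: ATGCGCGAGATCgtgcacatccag
Tubb2b: ATGCGAGAGATCgtgcacattcag
Tubb4b: ATGAGGGAGATCgtgcacctgcag
Tubb5: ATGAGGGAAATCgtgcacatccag

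The last 60 coding bases before the stop codon encode the beta tail and are shown for the 4 beta genes that were higher in the Cpt2 group. Capitals mark bases that differ from Tubb2a when the sequences are lined up at the stop codon without gaps.
Tubb2a: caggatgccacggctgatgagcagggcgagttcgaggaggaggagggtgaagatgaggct
Tubb2b: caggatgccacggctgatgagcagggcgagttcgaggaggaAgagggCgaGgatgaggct
Tubb4b: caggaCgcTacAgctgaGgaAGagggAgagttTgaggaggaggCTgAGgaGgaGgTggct
Tubb5: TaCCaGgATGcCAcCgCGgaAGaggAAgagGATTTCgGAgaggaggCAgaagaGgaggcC
Tubb2b differed from Tubb2a at 3 of these bases, Tubb4b at 15 and Tubb5 at 28, part of the last count being a shift in register. The tyrosine cycle acts on the last residue of alpha-tubulin, and the last codon of 2 alpha genes is in capitals below. Tuba4a is encoded without the final tyrosine and Tuba8 ends in a phenylalanine codon.
Tuba4a: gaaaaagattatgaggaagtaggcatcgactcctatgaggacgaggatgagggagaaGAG
Tuba8: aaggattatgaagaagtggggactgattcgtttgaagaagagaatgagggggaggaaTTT

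Identity of the aligned coding sequences was 79.2 to 98.4% among alpha genes, 80.7 to 96.5% among beta genes and 53.8 to 57.9% between the families. This bears on how reads can be assigned. Of the distinct 100-base stretches of their annotated protein-coding transcripts, 36.9% of those of Tubb2a, 27.7% of Tubb2b and 29.2% of Tubb4b occur unchanged in a transcript of another gene. For Tubb2a and Tubb2b most of these lie in each other, and for Tubb4b in its processed pseudogenes. The shares were 65.1% for Tuba1a, 69.5% for Tuba1b and 53.4% for Tuba1c, and 0 for Tuba4a, Tuba8, Tubb5 and Tubb6. The read length and the treatment of reads with several matches are not stated, so the values of Tuba1a, Tuba1b, Tuba1c, Tubb2a, Tubb2b and Tubb4b are less certain than those of the other 4.

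In the Cpt1a knockout livers, Tubb4b, the broadly expressed class IVb beta-tubulin, was the most abundant isotype. Levels are given as FPKM, the authors' unit, which scales counts to gene length and library size. Library totals were 13138884 to 14116441 counts. Whether each of the 4 libraries is a mouse of its own is not stated, and their spread may therefore be technical. Livers 1 to 4 name these libraries, and n = 4 counts libraries. Hepatocyte markers summed to 29082 to 37181 FPKM per liver and bile duct markers to 9.17 to 13.5 FPKM. Cpt1a itself averaged 30.3 FPKM and was lower than in the reference group in the authors' deposited table (log2 fold change −2.79, adjusted p = 5.27e-51). Cpt2 was not lower in the Cpt2 group in the authors' deposited table (log2 fold change −0.07, adjusted p = 0.837), and the group is called by its name only.

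Among beta-tubulins, Tubb4b had 43.7, 46, 44.3 and 35.7 FPKM in livers 1 to 4. Tubb2a, a class II isotype abundant in brain, had 17.1, 16.4, 33.0 and 21.4 FPKM. Liver 3 was the highest for Tubb2a, at 2.02 times the lowest liver. Tubb5, the class I isotype of most tissues, had 12, 10.5, 9.83 and 13.5 FPKM, and Tubb6, the class V isotype, 4.10, 2.88, 2.94 and 2.75 FPKM. Liver 1 stood above the other livers for Tubb6. Tubb2b, the class II neighbour of Tubb2a, was close to the detection limit with 13, 1, 2 and 10 counts, or 0.378, 0.029, 0.055 and 0.277 FPKM.

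Among alpha-tubulins, Tuba4a led with 28.7, 31.9, 30.0 and 30.6 FPKM. Its SD on the log2(FPKM + 1) scale was 0.06, above that of only 4.2% of the 10859 genes with a mean of at least 1 FPKM, whereas the SD of Tubb2a was 0.44, above that of 89.8% of them. Tuba1c had 23.7, 16.4, 22.6 and 17.0 FPKM. Tuba1b had 12.3, 8.19, 10.5 and 10.5 FPKM, and both encode widely expressed alpha-tubulins. Liver 2 was the lowest for both. Tuba8, first described in heart, skeletal muscle and testis, had 3.12, 2.32, 2.14 and 1.52 FPKM, and Tuba1a, the main neuronal alpha-tubulin, 1.03, 0.996, 0.804 and 0.776 FPKM from 22 to 28 counts.

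**Figure D1:**
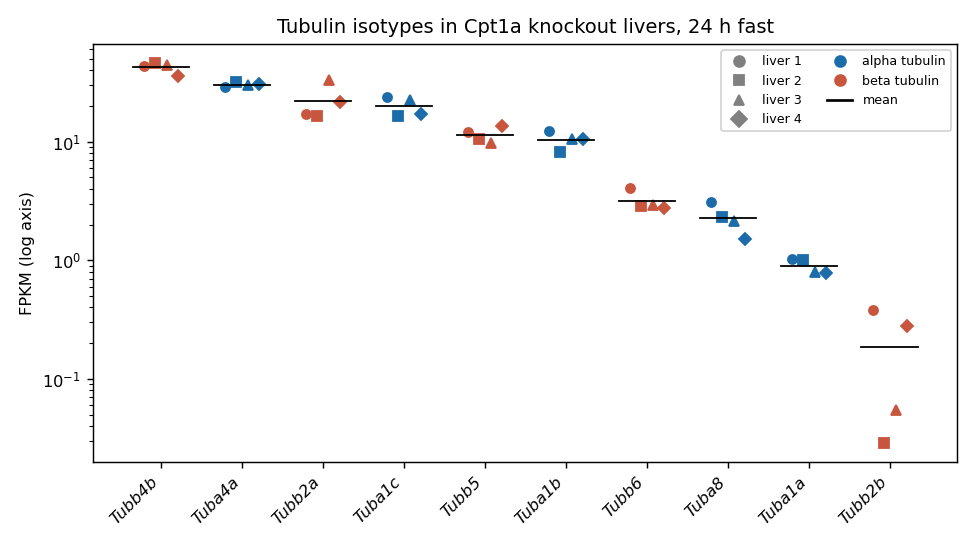
FPKM (log axis) of each tubulin isotype in the 4 Cpt1a knockout livers, one symbol per liver, with the mean as a line and alpha and beta genes in different colours. Tubb4b lies highest at a mean of 42.4 FPKM and Tubb2b lowest at 0.185 FPKM, with the widest spread.

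By mean FPKM the order was Tubb4b (42.4 ± 4.59, SD, n = 4), Tuba4a (30.3 ± 1.36), Tubb2a (22 ± 7.70), Tuba1c (19.9 ± 3.79), Tubb5 (11.4 ± 1.63), Tuba1b (10.4 ± 1.69), Tubb6 (3.17 ± 0.624), Tuba8 (2.28 ± 0.660), Tuba1a (0.903 ± 0.131) and Tubb2b (0.185 ± 0.170). The ranges over livers overlapped between Tuba4a and Tubb2a, Tubb2a and Tuba1c, Tubb5 and Tuba1b, and Tubb6 and Tuba8, so these neighbours in the order were not separated by their spread. A mean of at least 1 FPKM was reached by 8 of the 10 isotypes. The remaining tubulin genes were scarce: of 10 other family members (Tuba3a, Tuba3b, Tubal3, Tubb1, Tubb3, Tubb4a, Tubg1, Tubg2, Tubd1 and Tube1), 1 reached that mean, Tubg1, the gamma-tubulin of nucleation sites, at 6.41 FPKM, and Tuba3a, Tuba3b, Tubal3 and Tubb3 had no count in any liver.

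In the Cpt2 group against the reference group, 6 of the 10 isotypes were higher and none lower at an adjusted p below 0.05 in the authors' deposited table. Over all 17475 genes with an adjusted p in that table, 21.0% were called either way, 10.3% higher and 10.7% lower. The 6 were the beta genes Tubb2a, Tubb2b, Tubb4b and Tubb5 and the alpha genes Tuba1b and Tuba1c. The median log2 fold change was 1.22 over the 10 isotypes, against −0.03 over all genes with an adjusted p. The Cpt2 group also entered the comparison that chose the genes, so these calls are not independent of the choice. The group means of this table were not used here. Levels of the Cpt2 and reference groups are instead implied ones: the mean normalised count of the Cpt1a knockout livers (count divided by a size factor of the library), divided by the fold changes of the authors' deposited tables. They carry no error. In bulk tissue, a change in the number of cells of a type and a change in RNA per cell cannot be told apart.

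Tubb2a (ENSMUSG00000058672, chr13:34074274-34078007, minus strand, GRCm38) was 15.2-fold higher in the Cpt2 group than in the reference group in the authors' deposited table (log2 fold change 3.93, adjusted p = 5.5e-39). Its implied levels were 6861 normalised counts in the Cpt2 group and 451 in the reference group, and it took place 26 by p among the genes of that table. Its neighbour Tubb2b (ENSMUSG00000045136, chr13:34126748-34130466, minus strand) was at 5.40 on the log2 scale (adjusted p = 1.17e-23) in the authors' deposited table, with implied levels of 135 normalised counts in the Cpt2 group and 3.21 in the reference group. At so low a level in the reference group the size of the Tubb2b change is poorly fixed. The implied level of Tubb2b was 1.97% of that of Tubb2a in the Cpt2 group and 0.711% in the reference group, and with the sequence both genes share, whether some reads counted for Tubb2b came from Tubb2a was not tested.

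The other called isotypes changed less. Tubb4b (ENSMUSG00000036752, chr2:25222160-25224702, minus strand) was 2.81-fold higher in the Cpt2 group (adjusted p = 2.71e-14) in the authors' deposited table. Tubb5 (ENSMUSG00000001525, chr17:35833921-35838306, minus strand) was 2.46-fold higher (adjusted p = 5.78e-13) in the authors' deposited table. Tuba1b (ENSMUSG00000023004, chr15:98931425-98934565, minus strand) was 3.0-fold higher (adjusted p = 7.44e-09) and Tuba1c (ENSMUSG00000043091, chr15:99029891-99038110, plus strand) 2.20-fold higher (adjusted p = 1.49e-05) in the authors' deposited table. The called beta genes thus ranged from log2 fold changes of 1.3 to 5.40 and the called alpha genes from 1.14 to 1.59. The remaining 4 isotypes were not called in the authors' deposited table: the log2 fold change was 0.43 for Tuba4a (adjusted p = 0.0848), 0.12 for Tuba1a (0.910), 0.11 for Tubb6 (0.798) and −0.24 for Tuba8 (0.710).

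Against the reference group, the Cpt1a knockout had 2 of the 10 isotypes called, with Tuba1b higher and Tubb6 lower, in the authors' deposited table, where 14.4% of about 16862 genes were called either way, 6.81% higher and 7.6% lower. Tuba1b was higher, with a log2 fold change of 1.04 (2.06-fold, adjusted p = 0.00143), in the authors' deposited table. Tubb6 was lower, with a log2 fold change of −1.21 (2.31-fold lower, adjusted p = 9.74e-05), in the authors' deposited table. Only genes whose unadjusted p does not exceed 0.05 are in that table, and the other 8 isotypes, Tubb2a among them, are not listed. For these the sum of the log2 fold changes of the other tables is given without a test. Across the 4424 genes in all tables this sum differed from the deposited value by at most 0.02 for 95% of genes. It was 0.26 for Tubb2a, 0.20 for Tubb4b, 0.24 for Tubb5, 0.04 for Tuba1c, 0.01 for Tuba4a, −0.18 for Tuba8 and 0.66 for Tuba1a. For Tubb2b, at a handful of counts in the knockout livers, it was 1.01. Both comparisons share their reference group, so their values are set side by side and not correlated.

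**Figure D2:**
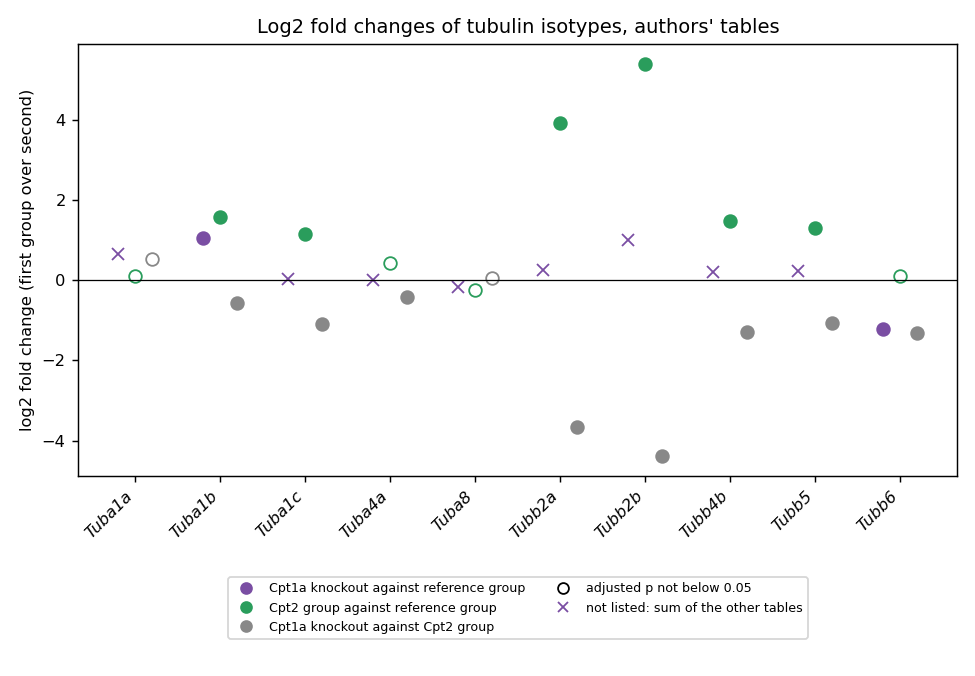
Log2 fold change of each tubulin isotype (first-named group over the second) in the authors' 3 comparisons; filled circles have an adjusted p below 0.05, open circles do not, and crosses are sums of the other tables for genes not listed. Tubb2a and Tubb2b reach 3.93 and 5.40 in the Cpt2 group against the reference group, while Tubb2a lies at 0.26 in the Cpt1a knockout against the same group.

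The direct comparison of the Cpt1a knockout with the Cpt2 group is the one that chose the genes and is described without reading a test from it. There 8 of the 10 isotypes were lower and none higher in the authors' deposited table, where 28.8% of 17755 genes were called either way, 14.2% higher and 14.6% lower. Tubb2a had 420, 399, 809 and 526 normalised counts in Cpt1a knockout livers 1 to 4, against an implied 6861 in the Cpt2 group (log2 fold change −3.67 in the authors' deposited table). The implied level is the mean of these livers divided by the fold change, so their place below it restates that fold change. Tubb2b had 13.2, 1.01, 1.92 and 9.72 normalised counts in the knockout livers, against an implied 135 in the Cpt2 group (log2 fold change −4.39 in the authors' deposited table). Tubb4b had 1390, 1458, 1407 and 1139 in the knockout livers, against an implied 3298 in the Cpt2 group (log2 fold change −1.29 in the authors' deposited table).

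Tubb5 had 608, 528, 497 and 684 normalised counts in the Cpt1a knockout livers, against an implied 1208 in the Cpt2 group (log2 fold change −1.06 in the authors' deposited table). Tuba1c had 828, 569, 788 and 594 in the knockout livers, against an implied 1490 in the Cpt2 group (log2 fold change −1.10 in the authors' deposited table). Tubb6 had 110, 76.7, 78.6 and 73.9 in the knockout livers, against an implied 213 in the Cpt2 group (log2 fold change −1.33 in the authors' deposited table). Its place differs from that of the other beta genes: it was not called in the Cpt2 group against the reference group and was lower in the Cpt1a knockout against that group. Tuba1b (−0.56) and Tuba4a (−0.42) were lower by less, and Tuba1a (0.54, adjusted p = 0.338) and Tuba8 (0.06, adjusted p = 0.918) were not called, in the authors' deposited table. For Tuba1a all knockout livers (21.4 to 28.4) lay above the implied level of the Cpt2 group, and for Tuba8 they lay on both sides of it. The implied levels derive from these same livers, so these places are no evidence apart from the fold changes.

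**Figure D3:**
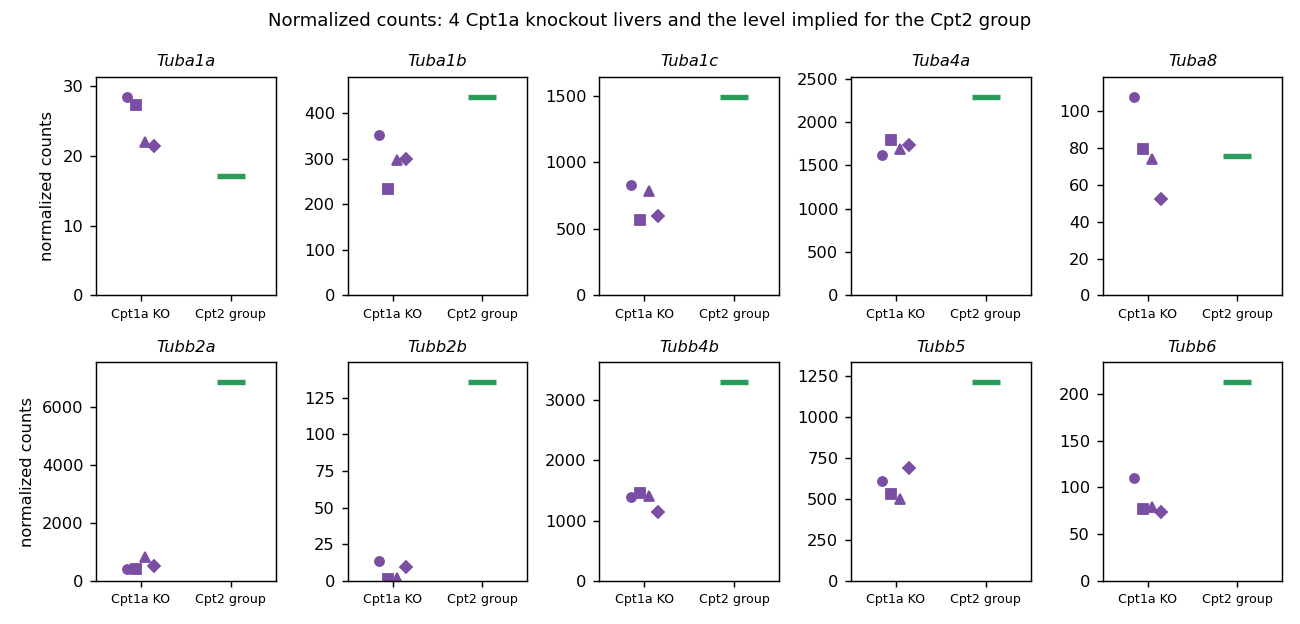
Normalised counts (linear axes from 0, one panel per isotype) of the 4 Cpt1a knockout livers, one symbol per liver, and the level implied for the Cpt2 group as a bar. Tubb2a shows the widest gap among the abundant isotypes, with 399 to 809 in the knockout livers against an implied 6861 in the Cpt2 group.

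The most abundant beta-tubulin was Tubb4b in the Cpt1a knockout and reference groups and Tubb2a in the Cpt2 group. Per kilobase of gene, Tubb2a made up 27.4 ± 7.05% of the beta-tubulin level of the Cpt1a knockout livers (SD, n = 4, range 21.6 to 36.6%) and Tubb4b 53.7 ± 5.93%. From the implied levels, Tubb2a was 66.8% of beta-tubulin in the Cpt2 group, against 25.4% in the reference group, and Tubb4b 24.7% in the Cpt2 group, against 51% in the reference group. The ratio of Tubb2a to Tubb4b was 0.355 to 0.746 in the knockout livers, 2.70 in the Cpt2 group and 0.497 in the reference group. The summed beta-tubulin level per kilobase was 5.78 times that of the reference group in the Cpt2 group, and 75.4% of the difference lay in Tubb2a and 19.3% in Tubb4b.

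Alpha-tubulin changed less in sum. Its level per kilobase in the Cpt2 group was 1.76 times that of the reference group, so the ratio of alpha to beta transcripts was 0.242 in the Cpt2 group and 0.797 in the reference group. In the Cpt1a knockout livers that ratio was 0.808 ± 0.066 (SD, n = 4, range 0.732 to 0.891). Tuba4a made up 47.8 ± 5.28% of alpha-tubulin in the knockout livers, 40.0% in the Cpt2 group and 52.2% in the reference group, and Tuba1c 31.1 ± 3.83%, 42.2% and 33.6% in the same order. A ratio of transcripts says nothing of the ratio of proteins.

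**Figure D4:**
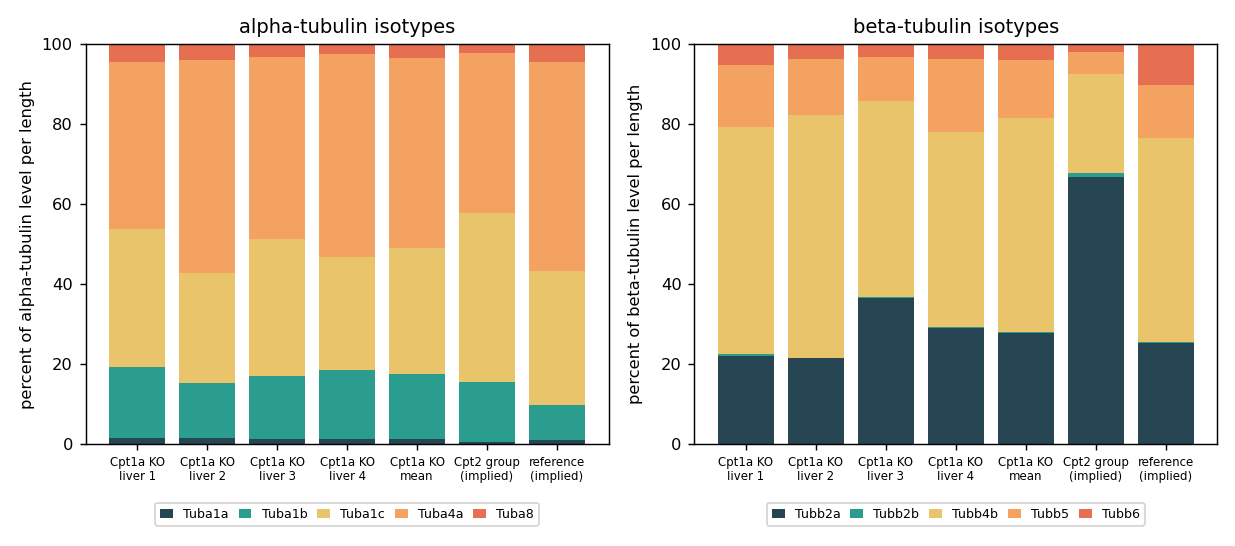
Share of each isotype in the alpha-tubulin (left) and beta-tubulin (right) level per kilobase of gene, for the 4 Cpt1a knockout livers (FPKM), their mean, and for the levels implied for the Cpt2 group and the reference group. Tubb2a takes 66.8% of beta-tubulin in the Cpt2 group, against 25.4% in the reference group.

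The promoters of the 3 abundant beta genes that were higher in the Cpt2 group are shown because these genes were called in the same direction. Each line gives the 250 bases before the start site from RefSeq (GRCm38.p6), read towards the gene on its minus strand. Capitals mark the CCAAT box (letters CCAAT), the GC box (letters GGGCGG), the TATA box (letters TATAAA) and the E-box (letters CACGTG), each searched on both strands, and no match overlapped another.
Tubb2a (chr13:34078009-34078258): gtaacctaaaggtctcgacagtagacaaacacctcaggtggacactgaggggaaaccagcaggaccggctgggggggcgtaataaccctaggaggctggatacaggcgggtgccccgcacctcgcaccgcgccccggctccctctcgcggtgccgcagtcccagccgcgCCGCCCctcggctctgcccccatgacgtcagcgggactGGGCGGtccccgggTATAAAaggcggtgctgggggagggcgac
Tubb4b (chr2:25224703-25224952): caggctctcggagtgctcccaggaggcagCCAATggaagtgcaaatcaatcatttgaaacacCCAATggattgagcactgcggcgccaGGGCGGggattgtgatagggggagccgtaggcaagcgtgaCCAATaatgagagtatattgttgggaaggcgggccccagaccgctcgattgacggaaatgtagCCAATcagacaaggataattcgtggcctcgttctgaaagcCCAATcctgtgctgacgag
Tubb5 (chr17:35838302-35838551): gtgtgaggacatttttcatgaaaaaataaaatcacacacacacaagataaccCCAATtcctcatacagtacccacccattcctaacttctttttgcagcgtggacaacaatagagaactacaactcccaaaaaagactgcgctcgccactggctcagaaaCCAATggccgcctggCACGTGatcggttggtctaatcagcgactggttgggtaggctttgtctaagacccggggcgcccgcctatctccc
The windows had different letters. Tubb2a held TATAAA 29 bases before the start, 2 copies of GGGCGG and no CCAAT, whereas Tubb4b held 5 copies of CCAAT and 1 of GGGCGG, and Tubb5 held 2 copies of CCAAT and 1 of CACGTG. Among 32851 such windows of the genome, 33.8% held CCAAT, 32.7% GGGCGG, 12.4% TATAAA and 6.02% CACGTG, and 10.1% held at least 2 copies of CCAAT. A match is a run of letters and not evidence of binding. A promoter window was found for 8 of the 10 isotypes.

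Tubb2a and Tubb2b lie within 56.2 kb on chromosome 13, and Tuba1a, Tuba1b and Tuba1c within 106.7 kb on chromosome 15. Among 33 other genes within 500 kb of the Tubb2a and Tubb2b pair, 9 had an adjusted p in the Cpt2 group against the reference group, and 1 was called higher and 3 lower, where 10.3% of all genes were called higher and 10.7% lower. The higher one was Slc22a23 (log2 fold change 0.57) and the lower ones were Bphl (−0.62), Nqo2 (−1.19) and Ripk1 (−0.44), all chosen after their values were seen, in the authors' deposited table. Around the Tuba1 genes, 31 of 67 had an adjusted p in the authors' deposited table, 2 of them called higher (Adcy6, 1.01, and Kansl2, 0.41) and 2 lower (Rnd1, −1.36, and Lmbr1l, −0.69), also chosen after their values were seen. These 4 calls are below the 21.0% of all genes called either way.

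Genes that act on tubulin were examined next. Prefoldin, the CCT chaperonin and the tubulin cofactors fold and pair newly made tubulin. In the Cpt2 group against the reference group 7 of these 21 genes were higher and none lower in the authors' deposited table, with a median log2 fold change of 0.26, where 10.3% of all genes were called higher and 10.7% lower. No prefoldin gene was among the 7, and more of them were cofactors or cofactor partners than CCT subunits. Cct3, a CCT subunit, was 0.69 on the log2 scale (adjusted p = 4.45e-06), the cofactor Tbce 0.68, its relative Tbcel 0.74, and Arl2, the small GTPase that works with the cofactors, 0.95 in the authors' deposited table. Tbca, the cofactor that binds beta-tubulin, had 0.27 (adjusted p = 0.396) there. The Cpt1a knockout, against the reference group, had 1 of them called in the authors' deposited table, Cct8 (−0.59, lower), chosen after its value was seen. In that comparison 14.4% of all genes were called either way. In the Cpt1a knockout against the Cpt2 group, 10 of the 21 were lower and none higher in the authors' deposited table. There 14.6% of all genes were called lower and 14.2% higher.

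Of 12 genes for decay of tubulin mRNA (Ttc5, Scaper and the CCR4-NOT deadenylase), none was higher and 1 lower in the Cpt2 group against the reference group in the authors' deposited table, namely Cnot8 (−0.44), where 21.0% of all genes were called either way. Ttc5 had 0.35 (adjusted p = 0.252) there. For the Cpt1a knockout the authors' deposited table had none higher and 2 lower, Cnot2 (−0.49) and Cnot11 (−0.59). That number of calls is near the 14.4% of all genes called either way there and is no result about the list.

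Of 23 enzymes that modify tubulin, 17 had an adjusted p for the Cpt2 group in the authors' deposited table, which called 2 higher and 1 lower. That number of calls is near the 21.0% of all genes called either way and is no result about the list. Ttl, which puts tyrosine back on the alpha tail, was 1.0 on the log2 scale (adjusted p = 3.51e-05), Ttll12 of its family 0.94, and Atat1, which acetylates alpha-tubulin, −0.67 in the authors' deposited table. For the Cpt1a knockout, calls in the authors' deposited table were Ttll7 higher (1.07, chosen after its value was seen) and the tubulin deacetylase Sirt2 lower (−0.64). In that comparison 14.4% of all genes were called either way.

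Of the 10 other tubulin genes, 3 had an adjusted p for the Cpt2 group in the authors' deposited table. Of these, 1 was called, Tubd1, the delta-tubulin gene (−1.03, lower), where 10.7% of all genes were called lower. A call of 1 among 3 genes is no result about the list. Of 12 nucleation genes with an adjusted p, 2 were called higher and none lower for the Cpt2 group in the authors' deposited table, where 10.3% of all genes were called higher. These were Tubgcp2 of the gamma-tubulin ring complex (0.92) and Cdk5rap2, which recruits that complex (0.70), while Tubg1 had −0.18 (adjusted p = 0.624). For the Cpt1a knockout, Mzt1 of the same complex was called higher (0.87) in the authors' deposited table, where 6.81% of all genes were called higher. Of 26 microtubule-associated, end-binding and severing proteins, 5 were called higher and 4 lower for the Cpt2 group in the authors' deposited table, at a median of 0.08, where 10.3% of all genes were called higher and 10.7% lower. Map7, which recruits kinesin-1, had 0.86, Map1s 1.16, the end-binding protein Mapre3 1.08 and Tppp, a tubulin polymerisation-promoting protein, −1.30 in the authors' deposited table. Stmn1, which sequesters heterodimers, had −0.69 (adjusted p = 0.0418), and Map4 0.27 (adjusted p = 0.297) there. None of that list was called in the Cpt1a knockout against the reference group in the authors' deposited table, where 14.4% of all genes were called either way. Mapre3, listed at 0.44 in the authors' deposited table, had an adjusted p of 0.0579.

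Of 39 kinesin and dynein motor genes, the authors' deposited table called 5 higher and 2 lower for the Cpt2 group, at a median of 0.34. That number of calls is below the 21.0% of all genes called either way and is no result about the list in this comparison. Dync1li1, a dynein light intermediate chain, had 0.72 and Kif1b, a kinesin that carries organelles, 0.64, while the kinesin light chain Klc4 had −0.91 in the authors' deposited table. The heavy chains Kif5b (−0.0017, adjusted p = 0.996) and Dync1h1 (0.50, adjusted p = 0.106) were not called. For the Cpt1a knockout the authors' deposited table called 2 higher and 3 lower, among them Kif21b at 1.23 and Klc4 at −0.78. That is near the 14.4% of all genes called either way there and is no result about the list. In the Cpt1a knockout against the Cpt2 group, 18 of 40 motor genes were lower and 2 higher in the authors' deposited table. In that comparison 14.6% of all genes were called lower and 14.2% higher.

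Of 26 actin and intermediate filament genes, 10 were called higher and none lower for the Cpt2 group in the authors' deposited table, at a median of 0.35, where 10.3% of all genes were called higher and 10.7% lower. The cytoplasmic actins Actg1 and Actb had log2 fold changes of 2.39 (adjusted p = 7.8e-46) and 1.97 (2.81e-25), the tropomyosins Tpm4 and Tpm1 1.41 and 1.32, and the hepatocyte keratins Krt8 and Krt18 0.89 and 1.20 in the authors' deposited table. For the Cpt1a knockout the authors' deposited table called 3 higher and 5 lower, where 6.81% of all genes were called higher and 7.6% lower. Actb was at 0.76, Tpm4 at 0.67 and Krt8 at −0.84 in that table. Actg1 was not listed there, with a summed value of 0.25. In the Cpt1a knockout against the Cpt2 group, 12 of the 26 were lower and 2 higher in the authors' deposited table. Microtubule-associated, end-binding and severing proteins had 7 lower and 3 higher of 26 in that comparison, and modifying enzymes 4 and 3 of 17. Decay factors had 3 lower and 2 higher of 12, and nucleation genes 1 and 1 of 12. Of all genes, 14.6% were called lower and 14.2% higher there.

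**Figure D5:**
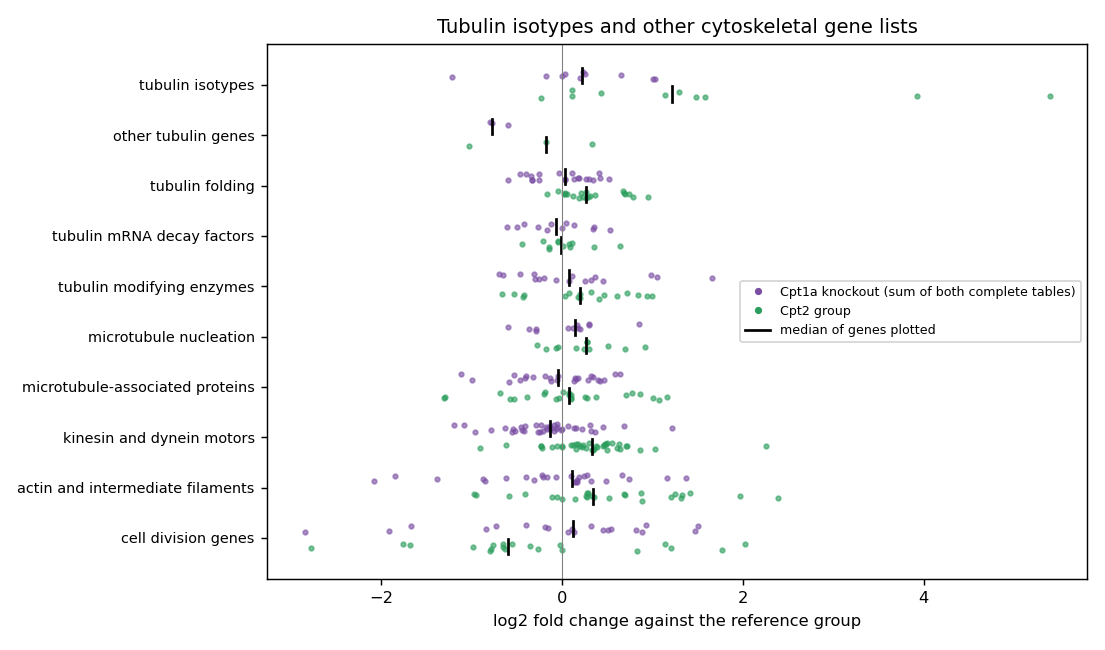
Log2 fold change against the reference group of the tubulin isotypes and of 9 lists of cytoskeletal and cell division genes, for the Cpt1a knockout (sum of both complete tables) and the Cpt2 group, one point per gene with an adjusted p in both complete tables and the median as a line. The tubulin isotypes have a median of 1.22 in the Cpt2 group and 0.22 in the Cpt1a knockout.

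Tubulin transcripts can also differ with dividing cells or with other cell types, so these markers were read from the same tables. Of 21 cell division genes, the authors' deposited table called 2 higher and 2 lower for the Cpt2 group, near the 21.0% of all genes called either way, at a median of −0.63, with Mcm2 at 2.02, Ccnd1 at 1.14 and Birc5 at −2.77. Likewise, 2 were called each way for the Cpt1a knockout in the authors' deposited table. Mki67 (1.52) and Ccnd1 (0.89) were higher there, and Cdc20 (−2.94) and the cell cycle inhibitor Cdkn1a (−2.84) lower. In that comparison 14.4% of all genes were called either way. Hepatocyte markers were lower in 6 of 10 in the Cpt2 group and in 5 of 10 in the Cpt1a knockout, each against the reference group in the authors' deposited tables, where 10.7% of all genes were called lower for the Cpt2 group and 7.6% for the Cpt1a knockout. Their levels summed to 967310 normalised counts in the Cpt1a knockout, an implied 941181 in the Cpt2 group and an implied 1973340 in the reference group, and the part of this difference in the tubulin values was not tested. Bile duct markers had none higher and 1 lower of 7 in the Cpt2 group, and their implied levels summed to 236 normalised counts in the Cpt2 group, against 446 in the reference group. Stellate cell and fibroblast markers had none called of 11, with sums of 6689 in the Cpt2 group and 5623 in the reference group. Endothelial markers had none higher and 1 lower of 11, and macrophage markers 1 higher and 3 lower of 13, with sums of 4245 in the Cpt2 group and 5110 in the reference group for the second list. Lymphocyte markers had none higher and 1 lower of 13, neutrophil markers none called of 3, and red blood cell markers none higher and 4 lower of 5. None of these marker genes was at 0 in all Cpt1a knockout livers.

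In the Cpt1a knockout against the Cpt2 group, where the tubulins were lower, 11 of 13 macrophage markers were called higher and 1 lower, and 6 of 13 lymphocyte markers higher, in the authors' deposited table, where 14.2% of all genes were called higher and 14.6% lower. Macrophage markers summed to 7073 normalised counts in the Cpt1a knockout and an implied 4245 in the Cpt2 group, and lymphocyte markers to 385 in the Cpt1a knockout and an implied 142 in the Cpt2 group. Higher calls were not confined to these lists. The same table called 5 of 11 endothelial markers higher and none lower. Among red blood cell markers, 4 of the 4 with an adjusted p were called higher. Stellate cell and fibroblast markers had 2 higher and 3 lower of 11, and hepatocyte markers 2 and 1 of 10. Bile duct markers had 1 higher and none lower of 7, and neutrophil markers 1 and none of 5. Cell division genes had 4 higher and 2 lower of 21, at a median log2 fold change of 0.61. That number of calls is near the 28.8% of all genes called either way and is no result about the list. Against the reference group, the Cpt1a knockout had 2 macrophage and 4 lymphocyte markers called higher and none lower in the authors' deposited table, where 6.81% of all genes were called higher. Stellate cell and fibroblast markers had 2 higher there, endothelial markers 1 and neutrophil markers 1, with none lower. The part of these cells in the tubulin values was not tested. Macrophage markers summed to 240.3 to 260.9 FPKM over the knockout livers and lymphocyte markers to 5.91 to 8.27 FPKM.

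The genes most like Tubb2a were sought over the log2 fold changes of both complete comparisons, as the smallest Euclidean distance among 8648 other protein-coding genes with a mean of at least 100 counts in the knockout livers. They were Pdk4, the kinase that inhibits pyruvate dehydrogenase (distance 0.473), Apoa4, an apolipoprotein (1.12), and Cgref1 (1.35). Pdk4 had log2 fold changes of 3.83 in the Cpt2 group against the reference group and −3.21 in the Cpt1a knockout against the Cpt2 group, Apoa4 2.97 and −3.10, and Cgref1 3.88 and −2.32, in the authors' deposited tables. Cgref1 was also higher in the Cpt1a knockout against the reference group (1.57, adjusted p = 0.00134) in the authors' deposited table, where Pdk4, Apoa4 and Tubb2a were not listed.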

How the data were processed

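RNA-seq of 4 liver libraries gave the data. HISAT2 and GRCm38 (mm10) are named in the submitters' processing notes. The counter, annotation release, use of strand and statistical test are not stated. Raw read counts per gene and FPKM were used as deposited by the authors. The comparison tables hold, per the file headers, the log2 fold change, p-value and adjusted p-value of each gene, and a signal column per library, the deposited count divided by a size factor. Group means of the Cpt2 and reference groups match no sample here and were not used. Their implied levels start from the mean signal of the 4 livers and divide by the deposited fold changes, in turn. A further 8 per-sample columns match no sample of this series and were not used.

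The 4 samples form 1 group and allow no test of their own, so genes were called at the authors' adjusted p below 0.05. Genes at an adjusted p of exactly 1 were taken as left unadjusted. The number of genes tested in the partial table was worked out from its p-values. Alternatives used edgeR 4.0.16 (TMM) and DESeq2 1.42.0 size factors (R 4.3.3), other thresholds, and each liver left out. Coding sequences, aligned with Biopython 1.88, came from GENCODE M21, and the coding ends of some alpha genes are not reported here. Low counts limit the precision of Tubb2b and Tuba1a. The members, the lists and the naming rule were chosen with earlier results of these data known. The rule named all 10 members, in each list up to 4 genes, taken by the lowest adjusted p in either comparison with the reference group, fixed examples, and the 3 genes nearest to Tubb2a. Chromosome neighbours, and other genes named beside a count of 5 or fewer, were chosen after their values were seen.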

Additional observations from a re-analysis of the deposited data

Results flagged for a closer look

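Tubb6 had 4.10 FPKM in liver 1 and 2.75 to 2.94 FPKM in the other livers of the Cpt1a knockout, and the gap to the nearest liver was 0.859 of the whole range, above Dixon's 95% limit for 4 samples. Chance flags about 1 in 20 such groups, and 12 measures were examined here. Without liver 1 the mean was 2.86 FPKM, against 3.17 with it. The counts behind the values were 108, 76, 82 and 76.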

How the results depend on the processing

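Counts of called isotypes stayed within 1.5 times under every alternative that was run. Against the reference group the Cpt2 group had 6 called at an adjusted p below 0.01 and 7 below 0.1, and 6 with a log2 fold change of at least 1 as well. With a minimum mean count of 10 in the Cpt1a knockout livers it had 5, since Tubb2b was removed. Those livers are in neither group of this comparison. Tubb2b had a mean of 6.5 counts in them, against an implied 135 normalised counts in the Cpt2 group. The Cpt1a knockout had 2 called under each threshold. The ratio of alpha- to beta-tubulin was 0.808 per length and 1.1 from counts without gene length. For the Tubb2a share of beta-tubulin these values were 27.4% and 20.8%. Leaving out each liver in turn gave ratios of 0.781 to 0.834, a Tubb2a share of 24.3 to 29.3%, and 8 isotypes of at least 1 FPKM. That number was 9 with TMM or DESeq2 scaling, under which FPKM was 1.12 times the deposited value for every isotype. Without liver 3 the mean of Tubb2a was 18.3 FPKM, against 22 with it. The authors' comparisons could not be repeated without single libraries. No paired analysis was possible because the series holds 1 group. Depth limits Tubb2b, whose values rest on 1 to 13 counts per Cpt1a knockout liver.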
